A study of Mus musculus with 20 samples.

Results

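Neurexins, neuroligins and leucine-rich repeat transmembrane proteins (LRRTMs) are the adhesion molecules that bind each other across the synaptic cleft. Their transcripts were followed in mouse striatum through 9 genes, Nrxn2, Nrxn3, Nlgn1, Nlgn2, Nlgn3, Lrrtm1, Lrrtm2, Lrrtm3 and Lrrtm4. The genes were taken by symbol from the 39179 genes listed for each mouse. All 9 were among the 14792 genes that passed the filter of more than 1 CPM (counts per library total) in at least 3 mice. Every CPM value given from here on was instead scaled to the library size after TMM normalization, which adjusts for differences in composition between libraries. The data were RNA-seq read counts from the whole dissected striatum of 20 adult male mice. High-Active mice came from a line bred for high home cage activity, and Control mice from its companion line. Both lines descended from an intercross of 8 inbred strains and were sampled at generation 17, at an age of about 6.5 months. Each mouse received an injection of saline or of 0.25 mg/kg d-amphetamine sulfate, and tissue was taken 2 hours later. Line and treatment together gave 4 groups of 5 mice, which are called Control saline, High-Active saline, Control amphetamine and High-Active amphetamine.

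Neurexins sit mainly on the presynaptic membrane and organize the release site. Neuroligins and LRRTMs are postsynaptic partners that compete for overlapping neurexin surfaces and gather receptors and scaffolds on the other side of the cleft. Nlgn1 is best known from excitatory synapses, Nlgn2 from inhibitory ones and Nlgn3 from both, while LRRTMs act at excitatory synapses, and most neurons of the striatum are inhibitory projection neurons that receive both kinds of input.

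Libraries held 32388971 to 53710713 reads assigned to genes, and the least counted of the 9 genes, Nlgn3, had 879 to 1545 reads in a mouse. Among the 10 Control mice, 4 shared both parents with another mouse, and among the 10 High-Active mice 9 did, so mice of a line were not independent families. Each line was also a single selected or unselected population, and drift and selection cannot be told apart. All 9 markers of striatal projection neurons were expressed, for example the dopamine signaling regulator Ppp1r1b at 881 to 1676 CPM and the receptor Drd1 at 170 to 287 CPM. Markers of cortical excitatory neurons were also present and varied widely, with Tbr1, a transcription factor of deep cortical layers, at 15.1 to 88.9 CPM. In such bulk tissue, fewer cells of a type and less RNA per cell cannot be told apart.

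Levels were compared between genes only per length, as RPKM (CPM divided by the annotated exon length in kilobases). This length merges all annotated exons of a gene, with 5785 bases for Nlgn2, 13812 for Nrxn2 and 13422 for Nlgn1. Which transcripts of a gene were present was not examined, so the order and shares below hold for these lengths. Nlgn2 stood highest of the 9, at 46.8 RPKM ± 2.35 (SD, n = 20 mice), and its lowest mouse, 42.3 RPKM, exceeded the highest value of any other member. A middle group followed. It held Nrxn2 at 22.9 RPKM ± 1.70, Nrxn3 at 20.6 ± 1.36, Lrrtm3 at 20.3 ± 2.07, Lrrtm2 at 18.5 ± 1.79 and Lrrtm1 at 16.5 ± 0.99, and the ranges of neighbors in this order overlapped. Nrxn3 exceeded Lrrtm3 in only 11 of 20 mice, so the order of these 2 genes was not resolved. Lrrtm4 at 6.44 RPKM ± 0.39, Nlgn1 at 5.13 ± 0.50 and Nlgn3 at 3.36 ± 0.36 were lower than every member of the middle group.

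The place of Nlgn3 at the bottom depended on its annotation. In the annotation used here, 3823 of its 9271 exonic bases (41.2%) lay on the same strand as exons of Gm21986, and reads on shared bases are assigned to no gene by the usual settings of the counting tool. The older Ensembl annotation of GRCm38 that the authors aligned with was not analysed here for this overlap. Gm21986 itself had only 9 to 32 reads per mouse. With the shared bases left out of its length, Nlgn3 reached 5.71 RPKM ± 0.61 and would stand above Nlgn1. Nlgn2 made up 84.6% ± 0.83 (SD, n = 20 mice) of the summed RPKM of the 3 neuroligins, Nlgn1 9.28% ± 0.84 and Nlgn3 6.07% ± 0.58. With the shorter Nlgn3 length the shares were 81.2% ± 0.95 for Nlgn2, 8.91% ± 0.82 for Nlgn1 and 9.90% ± 0.91 for Nlgn3, which reversed the order of Nlgn1 and Nlgn3. The LRRTM sum was spread more evenly, with 32.8% from Lrrtm3, 29.8% from Lrrtm2, 26.9% from Lrrtm1 and 10.5% from Lrrtm4.

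**Figure D1:**
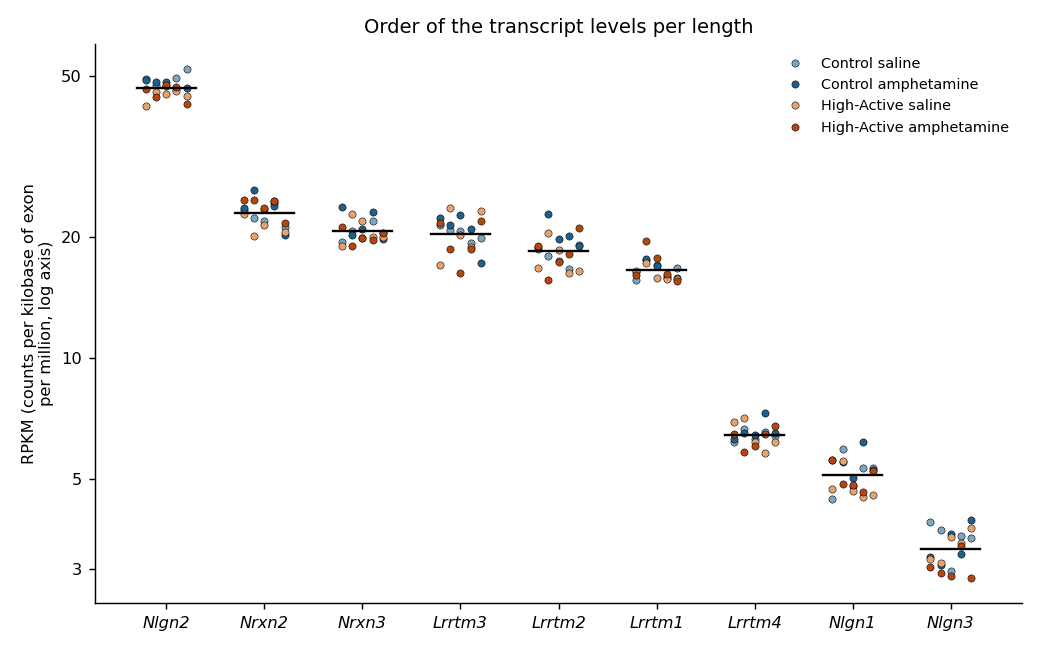
Transcript level per length of the 9 genes in 20 mice, as RPKM on a log axis. Each point is 1 mouse colored by group and each black line the mean of 20 mice. Nlgn2 lies apart at the top with a mean of 46.8 RPKM, 5 genes lie between means of 16.5 and 22.9, and Lrrtm4, Nlgn1 and Nlgn3 lie at the bottom.

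Between the lines, 1 of the 9 genes passed the threshold of FDR under 0.1 in edgeR's quasi-likelihood test with Benjamini-Hochberg adjustment over 14792 genes, and it was lower in High-Active mice. This gene was Nlgn2. Among all tested genes, 14.5% were called between the lines in either direction and 6.9% were called lower in High-Active mice, so 1 of 9 is near the share of genes at large. An unadjusted p under 0.05 for line was met by 2 of the 9 (Nlgn1 and Nlgn2), beside 3862 of 14792 tested genes (26.1%). The point estimate was below 0 in 8 of the 9, with a median log2 fold change (High-Active relative to Control) of -0.049, against -0.00093 over all tested genes. Amphetamine called 0 of the 9, none had an unadjusted p under 0.05, and the share of all genes called was 0%, with 1844 genes at an unadjusted p under 0.05. The line by amphetamine interaction also called 0 of the 9, with no unadjusted p under 0.05 and again 0% of all genes called, with 440 genes at an unadjusted p under 0.05. DESeq2 likewise called 0 of the 9 for amphetamine, beside 2.64% of all genes (391), and 0 for the interaction, beside 0% of all genes. A likelihood ratio test with robust dispersions called 0 of the 9 for amphetamine, beside 3.1% of all genes (458), and 0 for the interaction, beside 0.0406% (6 genes). Between the lines each called 1 of the 9, again Nlgn2, beside 19% of all genes in DESeq2 and 15.3% in the likelihood ratio test.

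**Figure D2:**
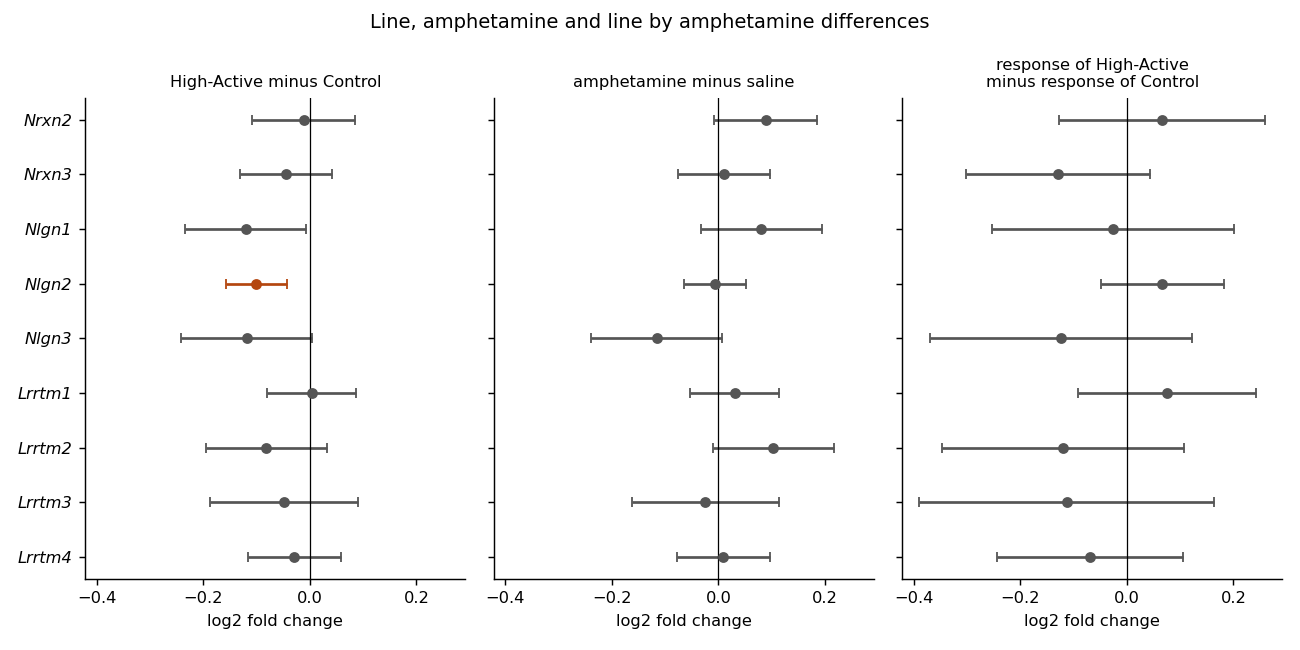
Differences of the 9 genes on the log2 scale with 95% confidence intervals from edgeR's quasi-likelihood fit to 20 mice, for line (left), amphetamine (middle) and the line by amphetamine interaction (right). The interval drawn in red belongs to Nlgn2 at -0.10 for line, the only one of 27 differences with an FDR under 0.1, and the interaction intervals are the widest.

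The neurexins, the presynaptic side of these pairs, differed little between the lines. Nrxn2 lies on chromosome 19 (6418731-6544169, plus strand, GRCm38) and Nrxn3 on chromosome 12 (88722876-90334935, plus strand), each with a large set of alternative exons that gene counts do not separate. Nrxn2 ranged from 278 to 361 CPM in Control mice and from 277 to 340.1 CPM in High-Active mice, with means of 317 ± 23.5 and 315 ± 24.7 (SD, n = 10 mice each). Between the lines the log2 fold change was -0.012, with a 95% interval of -0.11 to 0.085 (edgeR quasi-likelihood test, FDR = 0.901). Nrxn3 averaged 264 CPM ± 18.3 in Control and 256 CPM ± 15.7 in High-Active mice (SD, n = 10), and its log2 fold change of -0.045 had an interval of -0.13 to 0.042 (FDR = 0.525). For both genes the lines overlapped over most of their range.

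Nlgn2 encodes the neuroligin of inhibitory synapses and lies on chromosome 11 (69823122-69837784, minus strand, GRCm38). Its promoter is printed because it was the only member called between the lines. The 250 bases before its annotated start, chr11:69837785-69838034 on the minus strand of GRCm38.p6 from RefSeq, read 5′ to 3′ as follows, with capitals marking the GC box GGGCGG searched on both strands.
Nlgn2 promoter: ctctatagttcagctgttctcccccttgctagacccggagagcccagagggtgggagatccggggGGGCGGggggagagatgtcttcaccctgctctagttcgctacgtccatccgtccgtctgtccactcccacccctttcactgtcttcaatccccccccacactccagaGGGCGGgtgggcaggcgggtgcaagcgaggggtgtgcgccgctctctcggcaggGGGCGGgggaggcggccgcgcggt
The window held 3 GC boxes and 67.6% G and C, against a median of 52.4% over 32851 mouse promoter windows of this length. A GC box was found in 32.7% of those windows. Of the 9 genes, 6 were matched in the RefSeq table, with 10 start sites, and Nlgn2 alone among them held this motif. The cAMP response element TGACGTCA, present in 1.55% of all windows, and the E-box CACGTG, present in 6.02%, were found in none of the 10. The TATA box TATAAA, present in 12.4% of all windows, was found 2 times, both in 1 window of Lrrtm4. All were searched on both strands, and none contains another. These letters describe the windows and were not tested against the expression values.

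In Control saline mice Nlgn2 was measured at 273, 275, 285, 287 and 301 CPM, and in Control amphetamine mice at 268, 271, 280.3, 281 and 283 CPM. In High-Active saline mice it stood at 245, 259, 261, 265 and 266 CPM, and in High-Active amphetamine mice at 246, 257, 269, 273 and 274 CPM. All 10 High-Active mice lay below the Control median and 7 of them lay below every Control mouse. The line means were 280.4 CPM ± 9.50 in Control and 261 CPM ± 10.1 in High-Active mice (SD, n = 10), a fall of 6.74%. The log2 fold change was -0.10 with a standard error of 0.028 and a 95% interval of -0.16 to -0.043 (edgeR quasi-likelihood test, FDR = 0.034). A two-sided permutation test of log2 CPM with 100000 resamples gave p = 0.00025 for 10 against 10 mice. When each family of shared parents was reduced to its mean, Nlgn2 differed by -0.10 on the log2 scale between 8 Control and 5 High-Active families (exact permutation test, two-sided, p = 0.0039). With the counts of each family added up, the fit of edgeR across all genes gave an FDR of 0.151 at the same fold change.

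Nlgn2 was also compared within each treatment. Among saline mice, in the fit to all 20 mice, the log2 fold change was -0.13 with a standard error of 0.039, and Nlgn2 was the only 1 of the 9 genes called, against 3.74% of all genes (edgeR quasi-likelihood test, FDR = 0.087). The same contrast fitted to the 10 saline mice alone had an FDR of 0.165. The 5 High-Active and 5 Control saline mice did not overlap, as was the case for 4.23% of all tested genes (exact permutation test, two-sided, p = 0.0079, the smallest that 5 against 5 mice allow). Among amphetamine mice the log2 fold change was -0.067 (edgeR quasi-likelihood test, FDR = 0.479) and the groups overlapped. There 0 of the 9 genes were called, beside 1.3% of all genes. An unadjusted p under 0.05 was met by 1 of the 9 (Nlgn3), beside 1870 of 14792 tested genes. The lines did not differ detectably in their Nlgn2 response to amphetamine, with an interaction of 0.067 and a 95% interval of -0.049 to 0.18 on the log2 scale (edgeR quasi-likelihood test, unadjusted p = 0.243). Amphetamine itself left Nlgn2 within a narrow interval, -0.064 to 0.052 on the log2 scale, around a log2 fold change of -0.0062.

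Nlgn2 was also the steadiest of the 9 genes. Its standard deviation among mice of a group was 0.052 on the log2 CPM scale, at percentile 1.68 of all tested genes and at percentile 4.8 among the genes nearest to it in level. The other 8 members stood between percentiles 17 and 51 of all tested genes. The line difference of Nlgn2 exceeded this spread, while differences of like size in Nlgn1 and Nlgn3 did not reach the threshold.

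**Figure D3:**
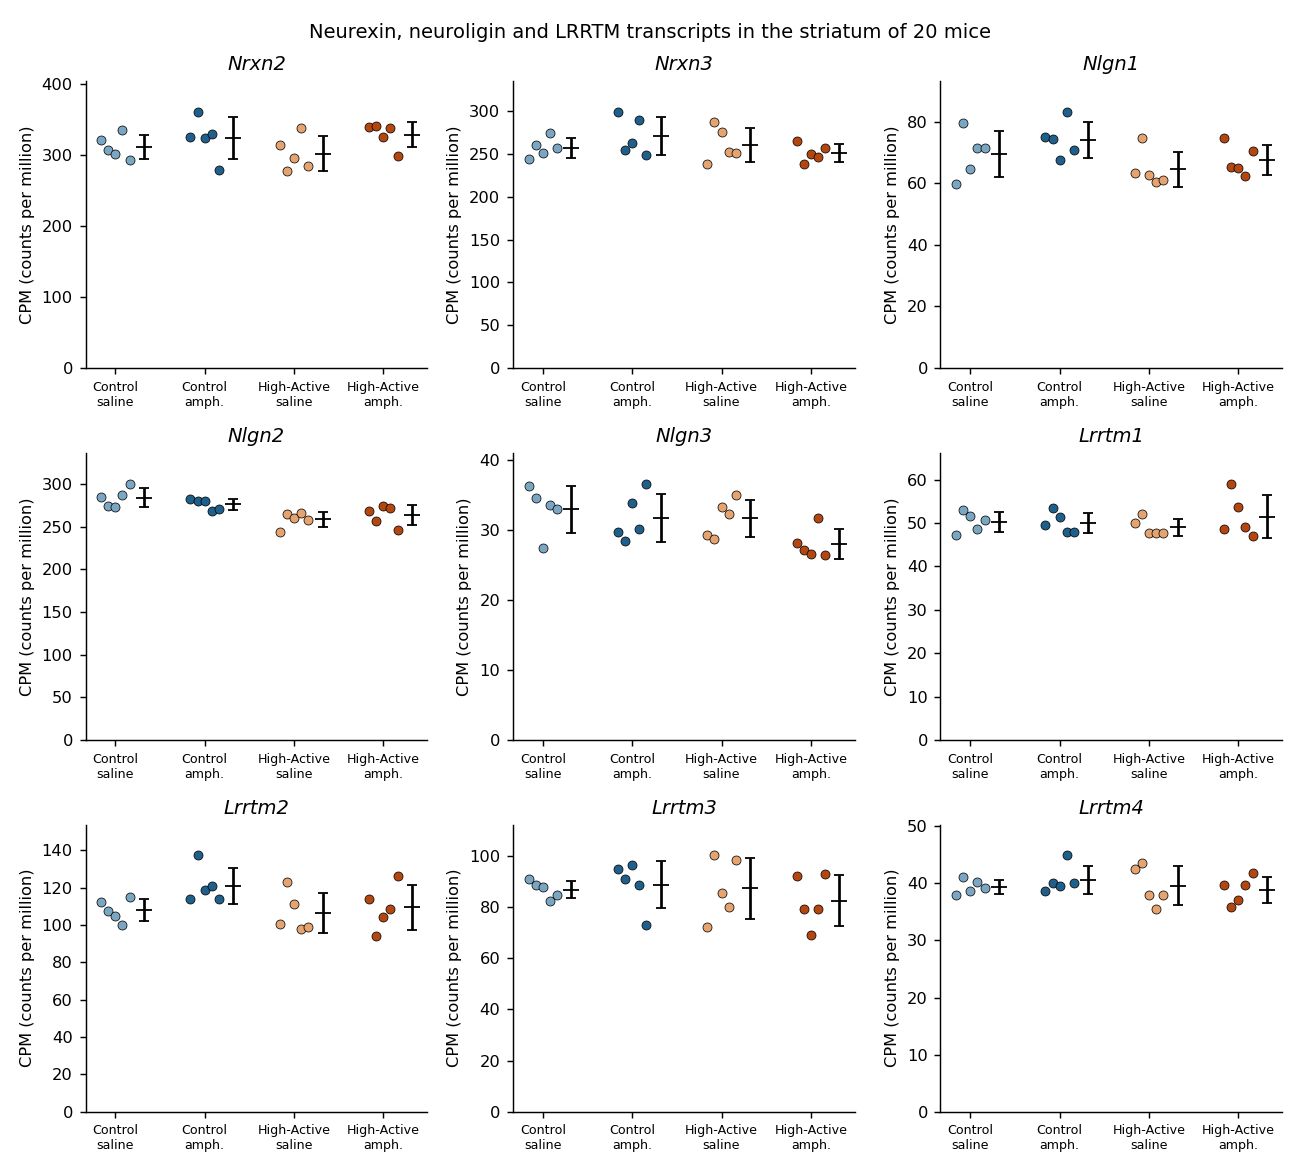
Levels of the 9 genes in each mouse, in CPM on axes that start at 0. Points are single mice, 5 per group, and the bars beside them are the group mean ± SD. In the Nlgn2 panel the High-Active saline mice, 245 to 266 CPM, all lie below the Control saline mice, 273 to 301 CPM, while the groups overlap in the other panels for the lines under saline.

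Nlgn1, the neuroligin of excitatory synapses, lies on chromosome 3 (25426215-26332460, minus strand). Control saline mice had 59.8, 64.7, 71.6, 71.6 and 79.7 CPM and Control amphetamine mice 67.6, 70.7, 74.2, 74.9 and 83.2 CPM. High-Active saline mice had 60.5, 61.2, 62.6, 63.4 and 74.6 CPM and High-Active amphetamine mice 62.3, 65.1, 65.3, 70.3 and 74.8 CPM. Thus 8 of 10 High-Active mice lay below the Control median, but no High-Active mouse lay below the lowest Control mouse. The log2 fold change between the lines, -0.12 with a standard error of 0.054, was larger in size than that of Nlgn2 and did not pass after adjustment (edgeR quasi-likelihood test, unadjusted p = 0.039, FDR = 0.167). Over the 20 fits that each left out 1 mouse, the line value ran from -0.15 to -0.095 and its FDR from 0.073 to 0.271. Only the fit without High-Active saline mouse 483, the highest of its group, passed (-0.15, FDR = 0.073). The opposite strand of 9.16% of the Nlgn1 exons carries A830092H15Rik, which had 62 to 162 reads per mouse.

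Nlgn3, found at both kinds of synapse, lies on the X chromosome (101299168-101325963, plus strand) and had the lowest counts. Control saline mice had 27.5, 33.0, 33.6, 34.6 and 36.3 CPM and Control amphetamine mice 28.5, 29.7, 30.2, 33.8 and 36.7 CPM. High-Active saline mice had 28.7, 29.3, 32.3, 33.3 and 35.0 CPM and High-Active amphetamine mice 26.4, 26.7, 27.2, 28.1 and 31.7 CPM. The saline groups covered nearly the same range, and 4 of the 5 High-Active amphetamine mice lay below every Control amphetamine mouse and below every High-Active saline mouse. The log2 fold change was -0.12 for line (standard error 0.059, FDR = 0.210) and -0.12 for amphetamine (standard error 0.059, FDR = 0.430), and neither passed edgeR's quasi-likelihood test after adjustment. Over the 20 fits that each left out 1 mouse, the line value ran from -0.15 to -0.090 and its FDR from 0.097 to 0.339. Only the fit without Control saline mouse 469, the lowest of its group, passed (-0.15, FDR = 0.097). Within High-Active mice the amphetamine difference was -0.18 with a 95% interval of -0.35 to -0.0040 (edgeR quasi-likelihood test, unadjusted p = 0.045, FDR = 0.572). In that contrast an unadjusted p under 0.05 was met by 1 of the 9, beside 1247 of 14792 tested genes. The responses of the lines were not shown to differ, with an interaction of -0.12 and an interval of -0.37 to 0.12.

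The LRRTMs, postsynaptic at excitatory contacts, gave no call between the lines. Lrrtm1 lies on chromosome 6 (77242689-77257791, plus strand), Lrrtm2 on chromosome 18, Lrrtm3 on chromosome 10 (63928472-64090277, minus strand) and Lrrtm4 on chromosome 6 (80018877-80810143, plus strand). Lrrtm1, Lrrtm2 and Lrrtm3 lie within the spans of the alpha-catenin genes Ctnna2, Ctnna1 and Ctnna3, each on the opposite strand. Those host genes had log2 fold changes between the lines of 0.0051, 0.0049 and 0.070, and none was called. Whether the counting used strand is not given in the sources used here, so reads of a gene and of a partner on the opposite strand may not have been separated where exons overlap. Besides Nlgn1, this held for 1.58% of the Lrrtm2 exons, 25.1% of the Lrrtm4 exons, 6.44% of the Nrxn2 exons and 3.48% of the Nrxn3 exons. The overlapping gene at Lrrtm4, Gm4409, had 0 to 4 reads per mouse. Nrxn2 overlaps Gm14964, with 47 to 138 reads per mouse, and Slc22a12, a urate transporter gene with 4 to 51 reads per mouse. Among the host and overlapping genes examined that passed the filter, only Slc22a12 was called between the lines. Its log2 fold change was 1.04 (edgeR quasi-likelihood test, FDR = 0.047). Gm21986 and Gm4409 did not pass the filter, and Gm37980, which overlaps Nrxn3, was not examined.

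Lrrtm1 was the most alike between the lines, at 50.1 CPM ± 2.21 in Control and 50.3 CPM ± 3.74 in High-Active mice (SD, n = 10), with a log2 fold change of 0.0038 and an interval of -0.080 to 0.087 (edgeR quasi-likelihood test, FDR = 0.964). Lrrtm4 averaged 40.02 CPM ± 1.94 in Control and 39.2 CPM ± 2.78 in High-Active mice (SD, n = 10), a log2 fold change of -0.029 (FDR = 0.695). Lrrtm3 was the most variable of the 4 on this contrast, at 87.8 CPM ± 6.68 and 84.9 CPM ± 10.7 (SD, n = 10), a log2 fold change of -0.049 with an interval of -0.19 to 0.090 (FDR = 0.683). The intervals of Lrrtm3 and Lrrtm4 included the -0.10 found for Nlgn2, and that of Lrrtm1 did not.

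Lrrtm2 gave the largest positive point estimate for amphetamine among the 9 genes, without passing the test. Control saline mice had 100.1, 105, 108, 112 and 115 CPM and Control amphetamine mice 114, 114, 118, 121 and 137 CPM. High-Active saline mice had 97.8, 98.7, 100.4, 111 and 123 CPM and High-Active amphetamine mice 94.1, 104, 109, 114 and 126 CPM. In Control mice 3 of the 5 amphetamine values lay above every saline value, and in High-Active mice the treatments overlapped. The log2 fold change for amphetamine was 0.10 over both lines with an interval of -0.010 to 0.22 (edgeR quasi-likelihood test, FDR = 0.451). It was 0.16 in Control mice (unadjusted p = 0.047, FDR = 0.783) and 0.044 in High-Active mice (FDR = 0.940), and the interaction of -0.12 had an interval of -0.35 to 0.11. Between the lines it was -0.082 with an interval of -0.20 to 0.031 (FDR = 0.355). Within Control mice, an unadjusted p under 0.05 for amphetamine was met by 1 of the 9, beside 940 of 14792 tested genes.

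Nrxn2 had the next largest positive estimate for amphetamine. Saline mice ranged from 292 to 335 CPM in Control and from 277 to 338 CPM in High-Active mice, and amphetamine mice from 278 to 361 CPM and from 298 to 340.1 CPM. The log2 fold change was 0.089 with an interval of -0.0079 to 0.19, and 8 of 10 amphetamine mice lay above the saline median (edgeR quasi-likelihood test, FDR = 0.446). Over the 9 genes the amphetamine estimates ran from -0.12 (Nlgn3) to 0.10 (Lrrtm2), with 6 above 0 and a median of 0.011, against -0.0067 over all tested genes. The interaction estimates ran from -0.13 (Nrxn3) to 0.076 (Lrrtm1), with standard errors of 0.055 to 0.13 on the log2 scale.

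Markers of other cell types differed between the groups. Of 10 cortical excitatory markers, 4 were called lower in High-Active mice and 0 higher (edgeR quasi-likelihood test, FDR under 0.1), with a median log2 fold change of -0.71 for line and 0.91 for amphetamine. Their summed level ranged from 505 to 1131 CPM in Control saline, 869 to 1177 in Control amphetamine, 316 to 534 in High-Active saline and 391 to 1294 in High-Active amphetamine mice, and none of the 10 was at 0 in any mouse. Of 6 oligodendrocyte markers 2 were called higher in High-Active mice, with summed levels of 3774 to 6370, 4333 to 6222, 5252 to 6854 and 5551 to 6993 CPM in the same order of groups, and none at 0. Among 9 markers of striatal projection neurons 0 were called (median log2 fold change -0.13), of 6 astrocyte markers 2 were higher and 1 was lower, and of 6 microglia markers 2 were lower. Endothelial cells, choroid plexus and striatal interneurons had 0 of 4, 0 of 5 and 0 of 5 markers called. The choroid plexus markers still varied widely, with a median log2 fold change of 0.61 for line and -0.54 for amphetamine. Their summed level ranged from 24.6 to 736, 20.5 to 263, 31.4 to 827 and 31.8 to 901 CPM in the same order of groups.

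With the mean log2 CPM of the cortical markers as a covariate, the log2 fold change of Nlgn2 between the lines was -0.090 with a standard error of 0.033 and no longer passed (edgeR quasi-likelihood test, FDR = 0.205), while calls over all genes went from 2149 to 434. The covariate itself was called for 0 of the 9 genes, against 7.69% of all genes. At an unadjusted p under 0.05 stood 1 of the 9 (Lrrtm1, -0.084 per unit of the score), beside 2616 of 14792 tested genes. With the oligodendrocyte markers as covariate, a setting chosen after seeing the data, Nlgn2 stood at -0.11 (FDR = 0.077). That covariate was also called for 0 of the 9, against 1.4% of all genes. At an unadjusted p under 0.05 stood 1 of the 9, beside 2277 of 14792 tested genes. The gene was Lrrtm2, which was lower by 0.43 on the log2 scale per unit of the oligodendrocyte score with a standard error of 0.12 (FDR = 0.106), and its line difference was 0.0095 in that fit.

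**Figure D4:**
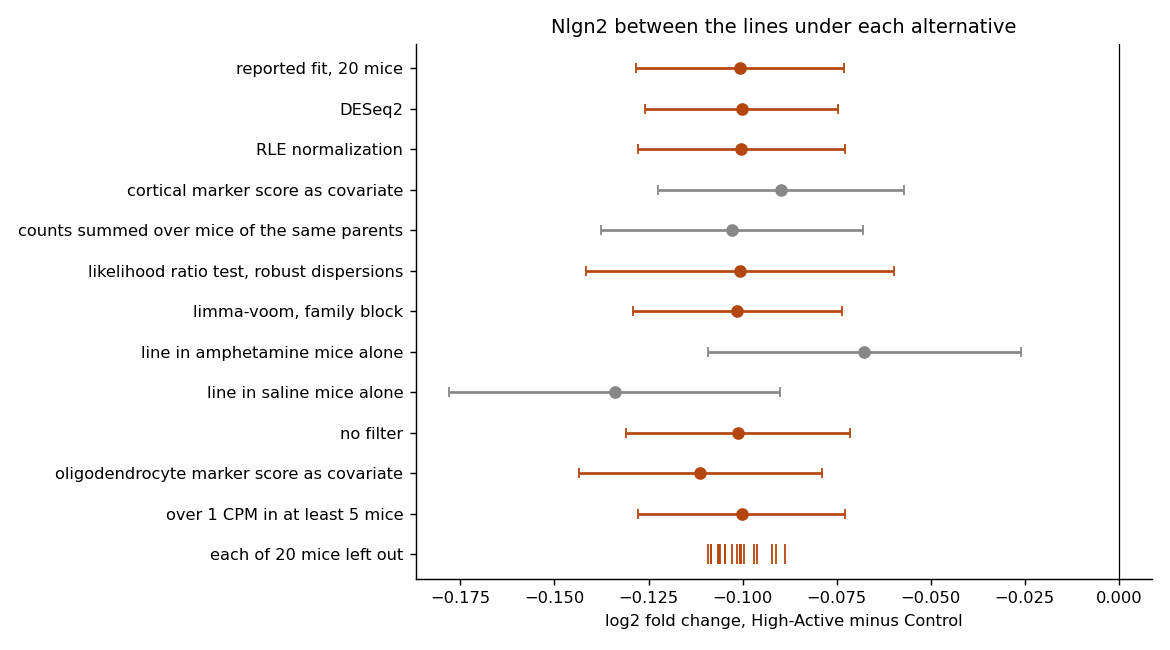
Log2 fold change of Nlgn2, High-Active minus Control, in the reported fit and under each alternative, with bars of 1 standard error and ticks for the 20 fits that leave out 1 mouse. Red points have an FDR under 0.1 and gray points do not. Every value lies below 0, between -0.13 (saline mice alone) and -0.068 (amphetamine mice alone).

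Known partners of these proteins were described through a list of 52 tested genes that holds ligands, competitors, co-receptors, scaffolds and proteases. Between the lines 7 of the 52 (13.5%) were called, beside 14.5% of all tested genes, with 6 lower and 1 higher in High-Active mice. The lower ones included Lin7b and Lin7c, small PDZ scaffolds that join the CASK complex at neurexin tails, with log2 fold changes of -0.29 (standard error 0.079, FDR = 0.033) and -0.082 (standard error 0.028, FDR = 0.075). Cask itself and Lin7a were not called, with log2 fold changes of 0.049 and 0.020 (edgeR quasi-likelihood test, FDR = 0.382 and 0.850). Gphn, which encodes gephyrin, the scaffold of inhibitory postsynapses, was at 87.6 CPM ± 4.86 in High-Active and 87.9 CPM ± 4.30 in Control mice (SD, n = 10; edgeR quasi-likelihood test, FDR = 0.948). Syt1, the calcium sensor of synaptic vesicles, was lower by 0.15 and Dlg3, a postsynaptic scaffold, by 0.13, and Gopc, a PDZ protein of the Golgi, by 0.099 (FDR = 0.079, 0.081 and 0.053). The single higher gene, Iqsec3, an exchange factor of inhibitory postsynapses, stood at 168 CPM ± 16.9 in High-Active and 144 CPM ± 18.5 in Control mice (SD, n = 10), a log2 fold change of 0.22 (FDR = 0.076).

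Amphetamine called 0 of the 52 partners in edgeR's quasi-likelihood test, with 15 of 52 (28.8%) at an unadjusted p under 0.05, beside 1844 of 14792 tested genes (12.5%). The interaction called 0 of the 52, with 0 at that level. The median amphetamine estimate of the partners was 0.071, beside -0.0067 over all tested genes and 0.011 for the 9 genes. The largest was that of C1ql3, a secreted protein that binds neurexin-3, at 0.83 with a standard error of 0.20 (FDR = 0.193). The cortical markers were higher by a median of 0.91 on the log2 scale in the same contrast, and their part in the partner values was not tested.

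**Figure D5:**
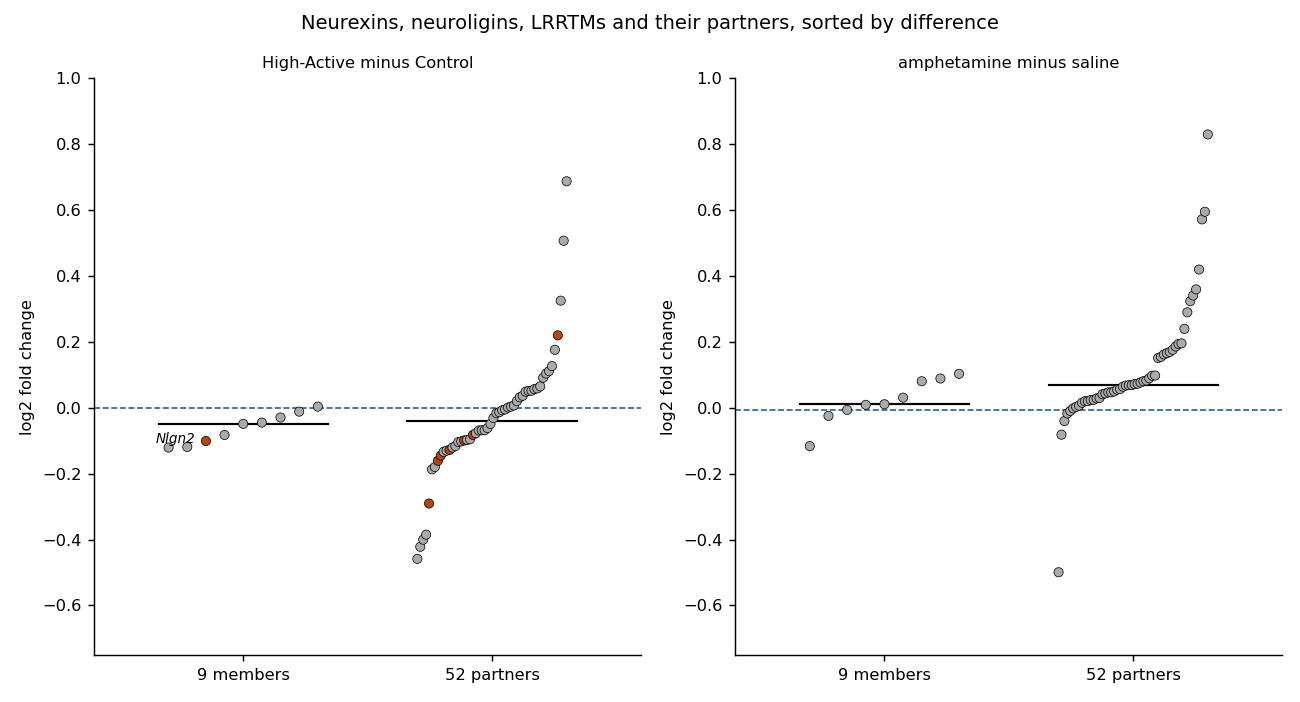
Log2 fold changes of the 9 genes and of their 52 partners, each sorted from lowest to highest, for line (left) and amphetamine (right). Red points have an FDR under 0.1, short black lines are list medians and the dashed line is the median of all tested genes. In the left panel 1 of the 9 genes (Nlgn2) and 7 partners are red, and in the right panel no point is red.

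Variation from mouse to mouse was described by the pairs among the 9 genes. After removal of the group means, 18 of their 36 pairs had a Pearson correlation of log2 CPM above 0 over the 20 mice. Genes measured in the same mouse share its library depth and dissection, which differed between mice. The part of these in the correlations was not tested. The values ran from -0.41 for Nlgn3 with Lrrtm1 to 0.67 for Nlgn1 with Lrrtm4, and Nlgn1 with Nrxn3 stood at 0.65. All 10 pairs among Nrxn3, Nlgn1, Lrrtm2, Lrrtm3 and Lrrtm4, a subset of 5 genes picked after seeing these values, were above 0, from 0.18 to 0.67. Measured the same way against all tested genes, the most alike gene was Nectin1, another adhesion molecule, for Nrxn2 (0.948) and Fnip1 for Nrxn3 (0.827). For the neuroligins it was Il1rapl1, a synaptic adhesion protein, for Nlgn1 (0.893), Amd2 for Nlgn2 (0.888) and Ssrp1 for Nlgn3 (0.796). For the LRRTMs it was Hrasls for Lrrtm1 (0.884), Rps6ka3 for Lrrtm2 (0.910), Glce for Lrrtm3 (0.896) and Pja2 for Lrrtm4 (0.824). Each was the highest among all tested genes, and the values are given as a description.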

How the data were processed

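RNA-seq was performed on striatal RNA of 20 mice with a stranded kit and paired reads. Reads were aligned by the authors to GRCm38 with an Ensembl annotation older than the one used here (TopHat2 2.0.10, Bowtie2 2.1.0), and the authors deposited, per mouse, unnormalized counts of reads per Ensembl gene from HTSeq 0.6.1 (tools per the submitters' processing notes). The strand setting of the counting is not given in the sources used here. Rows for reads assigned to no single gene held 16.0% to 17.5% of reads and were left out. Symbols, exon lengths and positions were taken from a GENCODE annotation of GRCm38, obtained separately from the deposited counts. This annotation matched 37607 of the 39179 identifiers.

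Genes with more than 1 CPM (by library total) in at least 3 mice were normalized by TMM, to whose library sizes all printed CPM and RPKM values are scaled, and fitted with edgeR 4.0.16 (R 4.3.3) by the quasi-likelihood test, in a model of 4 group means. Line, amphetamine and interaction contrasts used all 20 mice, and p-values were adjusted by Benjamini-Hochberg over all 14792 genes (threshold 0.1). Intervals are 95% intervals of the fit. Counting error alone, taken as 1 over the square root of the count, was at most 3.37% for a member in a mouse (Nlgn3) and at most 1.10% for Nlgn2. Single genes were checked by permutation of log2 CPM (prior count 2), in 72 tests over the 9 genes, and their adjusted values are those of the fit across all genes. The p-values measure the spread among mice, some of them siblings. The fitting script was tested on simulated data. Alternatives used DESeq2 1.42.0, RLE normalization, a robust likelihood ratio test, limma-voom 3.58.1 with families as a block, other filters, single treatments or lines, counts summed by parents, siblings of both treatments with family as a block (added after seeing the data), marker scores as covariates and each mouse left out. Members and gene lists were chosen with earlier results of these data known. Named genes were the 9 members, partners past the threshold in any effect (1 of them is not reported here), and the genes most alike each member. Gphn, C1ql3, Cask, Lin7a, the overlapping and host genes and the marker genes were named after their values were seen.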

Additional observations from a re-analysis of the deposited data

Results flagged for a closer look

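Each of the 36 sets of 5 mice (9 genes in 4 groups) was searched for a mouse far from the others by Dixon's ratio on log2 CPM, a rule that chance meets in about 1 of 20 groups, and 2 were found. For Nlgn1, High-Active saline mouse 483 stood at 6.22 log2 CPM (74.6 CPM), with the next mouse of its group at 5.99. Without this mouse the line difference of Nlgn1 was -0.15 on the log2 scale with an FDR of 0.073 in edgeR's quasi-likelihood test, in place of -0.12 and 0.167. None of the other fits without 1 mouse called Nlgn1. For Lrrtm4, Control amphetamine mouse 454 stood at 5.49 log2 CPM (44.9 CPM), with the next at 5.33. Without this mouse Lrrtm4 was still called for none of the 3 contrasts. The test of the interaction gave no member a permutation p under 0.05.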

How the results depend on the processing

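Nlgn2 stayed below 0 between the lines in every alternative and was called in 7 of 11 and in all 20 fits without 1 mouse (log2 fold change -0.11 to -0.089). It was lost, leaving 0 of the 9 genes called, with the cortical covariate (-0.090, FDR = 0.205), with counts summed by parents (-0.10, FDR = 0.151), in saline mice fitted alone (-0.13, FDR = 0.165) and in amphetamine mice alone (-0.068, FDR = 0.508). Leaving out a mouse gave 1 to 2 of the 9 called, the second being Nlgn1 without High-Active saline mouse 483 or Nlgn3 without Control saline mouse 469. The fit of amphetamine mice alone called 119 genes between the lines, that of saline mice 500, the cortical covariate 434, the oligodendrocyte covariate, added after seeing the data, 709 and the summed counts 609, in place of 2149. Without 1 mouse this was 1381 to 2535, lowest without High-Active amphetamine mouse 415 (1381), Control saline mouse 883 (1400) and High-Active saline mouse 871 (1405). For amphetamine, in place of 0 genes, DESeq2 called 391, the likelihood ratio test 458, the oligodendrocyte covariate 134 and the fits without 1 mouse 0 to 339, with 339 without High-Active amphetamine mouse 415, 128 without Control saline mouse 411, 33 without High-Active saline mouse 197, 20 without Control saline mouse 883 and 3 without Control amphetamine mouse 457. For the interaction the likelihood ratio test called 6 and the fits without 1 mouse 0 to 1 (without Control saline mouse 411). None of the 9 was called for amphetamine or the interaction in any alternative. The causes were not tested.

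Some estimates changed sign, always far from the threshold, and not all of them were near 0 in the reported fit. In that fit the line value of Lrrtm2 was -0.082 and the interaction of Nlgn3 was -0.12. Between the lines Nrxn2 was 0.0041 with summed counts and 0.021 in amphetamine mice. In saline mice alone Nrxn3 was 0.020, Lrrtm1 -0.034, Lrrtm3 0.0079 and Lrrtm4 0.0053. Lrrtm1 was -0.049 with the cortical covariate, -0.0039 in the likelihood ratio test and -0.013 with the oligodendrocyte covariate, under which Lrrtm2 was 0.0095, Lrrtm3 0.011 and Lrrtm4 0.00080. For amphetamine in High-Active mice alone Nrxn3 was -0.050, Nlgn2 0.030 and Lrrtm4 -0.023, in Control mice alone Lrrtm1 was -0.0091 and Lrrtm3 0.030, and with the cortical covariate Lrrtm4 was -0.015. Without 1 mouse the line values of Nrxn2 ran from -0.036 to 0.0080 and of Lrrtm1 from -0.023 to 0.019. The amphetamine values ran from -0.0050 to 0.029 for Nrxn3, -0.012 to 0.0081 for Nlgn2, -0.050 to 0.0083 for Lrrtm3 and -0.010 to 0.028 for Lrrtm4, and the interaction of Nlgn1 from -0.078 to 0.032. Animal numbers pair no mice across groups, but 13 mice of 6 families (2 Control, 4 High-Active) had siblings given the other treatment. With family as a block in edgeR's quasi-likelihood test of these mice, a setting added after seeing the data, 1 gene was called for amphetamine and 1 for the interaction, with 0 of the 9 in both. There Nrxn3 was -0.013, Nlgn2 0.018 and Lrrtm4 -0.014 for amphetamine and Nlgn3 0.039 for the interaction, each changed in sign. Between the lines the limma fit with families as a block kept Nlgn2 (FDR = 0.036). Gene counts do not separate splice forms, which matters most for the neurexins.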
